A study of Oryctolagus cuniculus with 49 samples.

Results

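The glutathione, thioredoxin and other antioxidant genes of the rabbit iris and ciliary body were taken from the deposited expression table by gene symbol, and 50 of its 12948 gene symbols were members. The rule covers glutathione S-transferases, glutathione peroxidases, peroxiredoxins and sulfiredoxin, the thioredoxin family, glutaredoxins, superoxide dismutases and catalase, the enzymes that make and recycle glutathione, quinone reductases, heme oxygenases, methionine sulfoxide reductases and metallothioneins of classes 1 and 2. No symbol matched the metallothionein part of the rule, because the table lists those genes under locus numbers, and they are described separately after the members. The symbols used no measured value.

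Total RNA was sequenced from eyes of New Zealand white rabbits after removal of the lens and insertion of an artificial one. The question behind the series is how genes of clotting and inflammation in the anterior eye react to this surgery and what age does to the reaction. Of 49 labelled samples, 26 are libraries of iris with ciliary body and are used here, while 23 are of cornea and are not analysed here. There were 3 operated libraries at 5 weeks, 3 operated at 6.5 weeks and 7 unoperated at 5 weeks, and at 6 months 6 operated and 7 unoperated libraries. Operated means that the lens had been removed and an intraocular lens put in. The labels give no genotype or drug, no time between surgery and sampling, and no unoperated 6.5-week libraries, so that operated juveniles of both ages were set against unoperated 5-week eyes. Each library has its own number in its title, but nothing says that the libraries come from separate animals, and p-values measure only the spread between these libraries.

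Values are FPKM, a count of sequenced fragments scaled to transcript length and to the mapped fragments of the library, and the read depth behind them is unknown. Changes are log2 fold changes on the log2(FPKM + 0.5) scale with standard errors, which understate the change of low genes, and a gene is said to have risen or fallen where limma gave an adjusted p under 0.05 over all 12948 genes. For groups of 3 libraries the value of each library is given in the order of library numbers, and for larger groups the lowest, median and highest. No member was at 0 in any library. The lowest member value was 0.28 FPKM, for TXNDC16 in 1 unoperated 5-week library, and the lowest in an unoperated 6-month library was 2.33 FPKM. The summed FPKM of the 50 members averaged 4265 ± 192 in operated and 4549 ± 321 in unoperated 6-month eyes (SD), against 3654 ± 225 in operated and 3821 ± 130 in unoperated juvenile eyes. In bulk tissue, fewer cells of a type and less RNA per cell cannot be told apart.

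As background, superoxide dismutases turn superoxide into hydrogen peroxide, which catalase, glutathione peroxidases and peroxiredoxins then remove. Glutathione, made by glutamate-cysteine ligase and glutathione synthetase, supplies electrons to the glutathione peroxidases and glutaredoxins and is joined to reactive compounds by glutathione S-transferases, while thioredoxin supplies the peroxiredoxins and methionine sulfoxide reductases. Several of these genes, among them HMOX1, NQO1, GCLC, GCLM, SRXN1 and TXNRD1, are known targets of the transcription factor NRF2. The ciliary body makes the aqueous humor, which bathes the lens and iris and is exposed to light, so that antioxidant enzymes of this tissue are a common subject of eye research.

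At 6 months surgery moved antioxidant genes in both directions, with 12 of the 50 higher and 13 lower in operated eyes. That is 24% and 26% of the members, beside 16.0% of all genes higher and 30.1% lower. The median log2 fold change of the members was -0.05, and that of all genes was -0.10. In juveniles 8 members rose and 7 fell, which is 16.0% and 14.0%, beside 16.5% and 20.8% of all genes, and the medians were 0.03 for the members and -0.06 for all genes. The genes that rose at both ages were HMOX1, GPX1, GLRX, NQO2, MGST1, TXNDC5 and TXNL4B, and those that fell at both ages were TXNIP, PRDX1, PRDX6, SOD2, GSTM3 and GSTZ1. The surgery comparisons at the 2 ages share no library, but each age comparison below uses libraries of both. No member changed in opposite directions at the 2 ages.

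The split between rises and falls depended on how libraries were scaled to each other. At 6 months 15 members rose and 5 fell after median-ratio scaling, while 7 rose and 21 fell when every library was scaled to an equal sum. Of all genes 2784 rose and 2614 fell at 6 months with the former, and 1441 rose and 6121 fell with the latter. In juveniles the member counts were 10 rises and 6 falls with median-ratio scaling and 6 rises and 16 falls with equal sums. The all-gene counts there were 2367 rises and 2335 falls, and 1545 rises and 4670 falls. Scaling to equal sums moved the median of all genes to -0.24 at 6 months and to -0.18 in juveniles. No called member changed direction under any scaling, and HMOX1, GPX1, TXNDC5, TXNIP, PRDX1 and PRDX6 kept their calls at both ages under all 3 scalings.

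**Figure D1:**
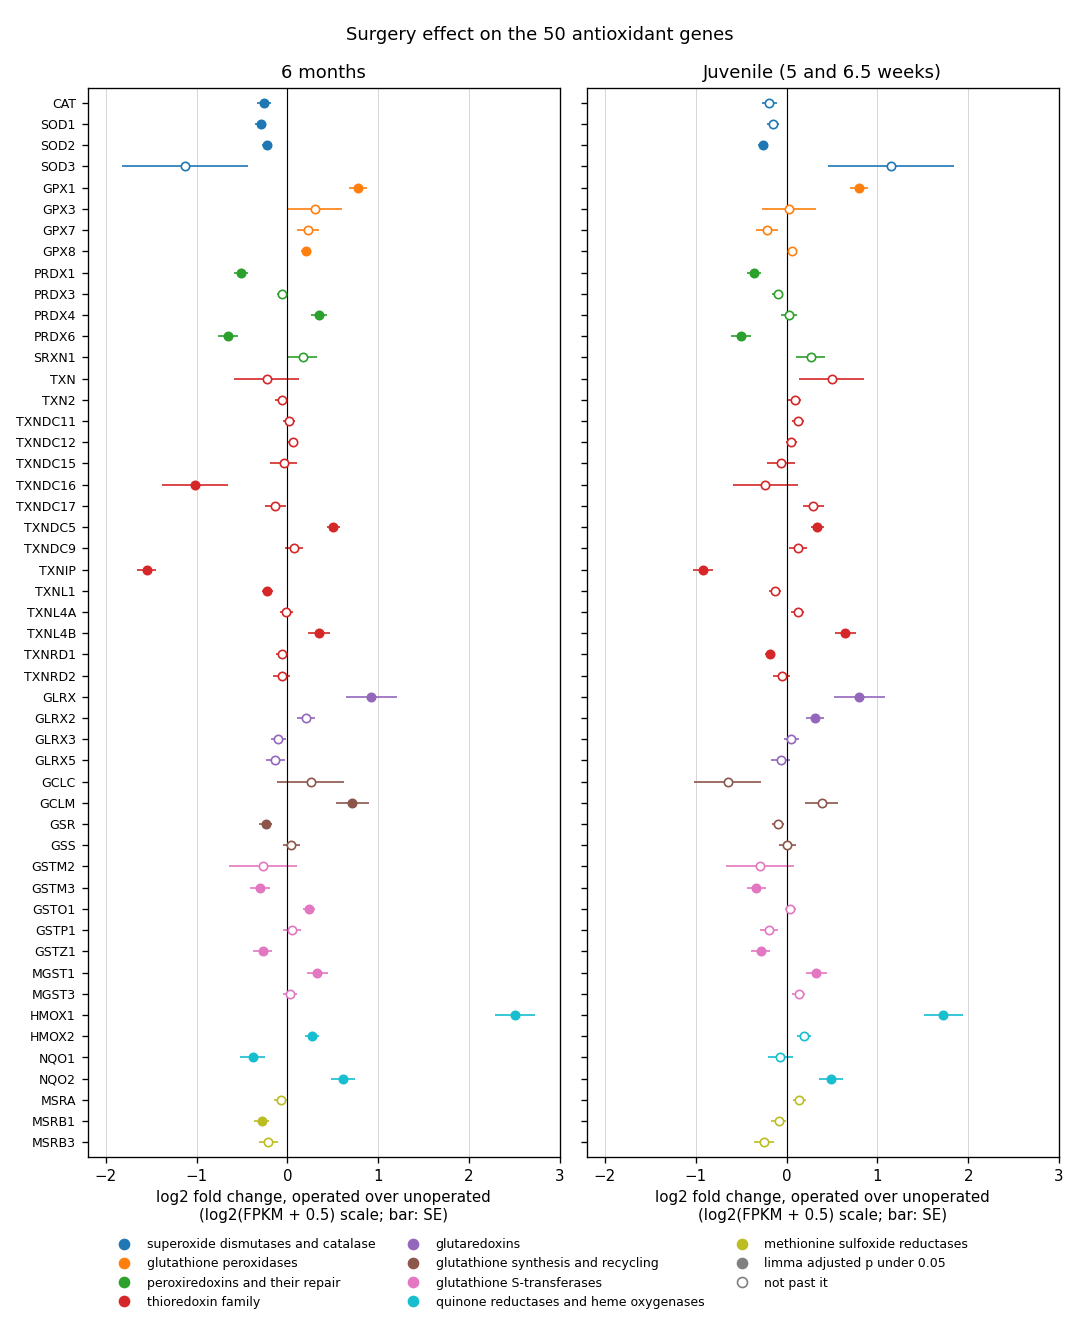
Log2 fold change of each of the 50 antioxidant genes in operated over unoperated eyes at 6 months (left) and in juveniles (right), with its SE as a bar, coloured by role. Filled points passed the limma threshold, and HMOX1 at the right and TXNIP at the left lie farthest out among them at both ages.

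HMOX1 encodes the inducible heme oxygenase, which breaks heme down to biliverdin, iron and carbon monoxide. In 6-month eyes its level ran over 26.9, 52.7 and 81.5 FPKM (lowest, median and highest) in the 6 operated libraries, against 6.65, 9.36 and 10.97 FPKM in the 7 unoperated libraries. In juveniles it was 24.6, 31.9 and 36.2 FPKM in operated 5-week eyes and 19.1, 19.7 and 44.5 FPKM in operated 6.5-week eyes, against 6.07, 8.79 and 10.4 FPKM in unoperated 5-week eyes. Operated and unoperated libraries did not overlap at either age. The log2 fold change was 2.50 ± 0.22 at 6 months (limma, adjusted p = 2.19e-09) and 1.73 ± 0.22 in juveniles (adjusted p = 9.48e-07). The difference between the ages was 0.78 ± 0.30 and did not pass the test (limma, adjusted p = 0.263), although with macrophage marker level as a covariate it was 1.04 ± 0.24 (adjusted p = 0.0289). HMOX2, the constitutive heme oxygenase, rose at 6 months by a log2 fold change of 0.27 (limma, adjusted p = 0.00647), a call lost with equal-sum scaling (0.13, adjusted p = 0.143) and with the macrophage covariate (adjusted p = 0.152).

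Macrophage and neutrophil markers moved with HMOX1. Of 14 measured macrophage markers 13 rose at 6 months and 14 in juveniles, beside 16.0% and 16.5% of all genes. Their summed level ran from 913 to 2167 FPKM in operated and 333 to 1104 FPKM in unoperated 6-month eyes, and from 920 to 2774 FPKM in operated and 207 to 503 FPKM in unoperated juvenile eyes. All 3 measured neutrophil markers, of 13 listed, rose at both ages, and their sum ran from 20.1 to 82.1 FPKM in operated and 0.55 to 4.18 FPKM in unoperated 6-month eyes, and from 15.7 to 56.0 FPKM in operated and 0.86 to 7.47 FPKM in unoperated juvenile eyes. A transcript is in the deposited table only where 1 group or more has it above 1 FPKM in each library. With sums down to 0.55 and 0.86 FPKM in unoperated eyes, these 3 are there through operated groups alone. The filter thus favoured a difference for these 3, and their test is not independent of that filter. The part of the neutrophil markers in the surgery changes was not tested. The operated 6-month library with the lowest HMOX1, 26.9 FPKM, also had the lowest mean macrophage marker level of its group, and those with 81.5 and 75.1 FPKM had the highest marker levels. With the macrophage marker level as a covariate, an alternative added after seeing the data, HMOX1 differed by 1.53 ± 0.29 at 6 months (limma, adjusted p = 0.00077) and by 0.49 ± 0.34 in juveniles (limma, adjusted p = 0.518). Under the same covariate 5 members rose and 3 fell at 6 months and 1 rose and 1 fell in juveniles, beside 783 higher and 880 lower genes of all 12948 at 6 months and 396 and 290 in juveniles. The covariate itself differs between operated and unoperated eyes, which widens the errors.

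Of the quinone reductases, NQO2, which reduces quinones with dihydronicotinamide riboside, rose at both ages. It averaged 9.93 ± 2.27 FPKM in operated and 6.18 ± 0.44 FPKM in unoperated 6-month eyes, and 10.6 ± 1.71 FPKM in operated and 7.35 ± 1.10 FPKM in unoperated juvenile eyes (SD). The log2 fold changes were 0.61 ± 0.13 (limma, adjusted p = 0.000525) and 0.49 ± 0.13 (adjusted p = 0.00436). Read from its most abundant transcript alone, NQO2 passed at neither age (limma, adjusted p = 0.0558 and 0.202), nor did it with the macrophage covariate (adjusted p = 0.0682 and 0.323). NQO1, the quinone reductase most used as an NRF2 target gene, went the other way at 6 months, with 22.3, 28.7 and 34.5 FPKM (lowest, median and highest) in operated and 31.2, 37.8 and 38.9 FPKM in unoperated eyes, and the groups overlapped. It fell by 0.38 on the log2 scale (SE 0.14; limma, adjusted p = 0.0268), a call that was lost without operated 6-month library 4 (adjusted p = 0.0652) or 6 (adjusted p = 0.0737). The call was also lost with median-ratio scaling and with the macrophage covariate (limma, adjusted p up to 0.213). In juveniles NQO1 was 20.8, 21.6 and 37.9 FPKM in operated 5-week and 24.1, 35.4 and 20.8 FPKM in operated 6.5-week eyes, against 21.5, 26.8 and 37.6 FPKM in unoperated eyes, with overlapping ranges and no call (limma, adjusted p = 0.716).

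**Figure D2:**
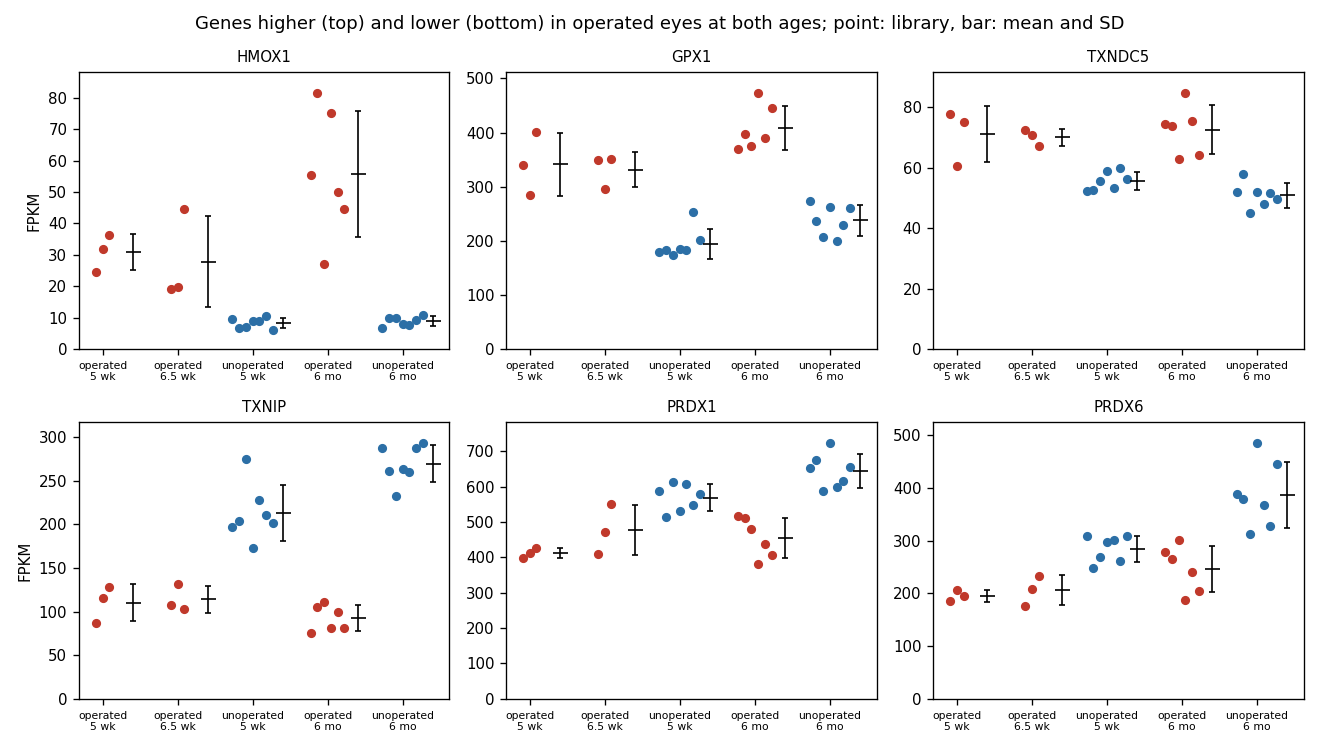
FPKM of 6 antioxidant genes in every library by group, with the mean and SD as bars; HMOX1, GPX1 and TXNDC5 in the top row rose and TXNIP, PRDX1 and PRDX6 in the bottom row fell with surgery at both ages. HMOX1 reaches 81.5 FPKM in operated 6-month eyes and stays at or under 10.97 FPKM in all unoperated eyes.

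All measured dismutases and catalase apart from SOD3 fell with surgery at 6 months, 3 of 4 genes, beside 30.1% of all genes. SOD2 also fell in juveniles, where 20.8% of all genes did. SOD2, the mitochondrial manganese enzyme, had 81.1, 86.5 and 89.4 FPKM (lowest, median and highest) in operated and 96.7, 102 and 104 FPKM in unoperated 6-month eyes. In juveniles SOD2 was 67.3, 70.6 and 71.9 FPKM at 5 weeks and 69.5, 69.3 and 72.8 FPKM at 6.5 weeks in operated eyes, against 76.9, 83.2 and 97.0 FPKM in unoperated eyes. The groups did not overlap at either age, although the changes were small, at -0.23 ± 0.05 (limma, adjusted p = 0.000726) and -0.26 ± 0.05 (adjusted p = 0.000232). SOD2 missed the threshold at 6 months after median-ratio scaling (limma, adjusted p = 0.0516), and at both ages with the macrophage covariate (-0.20 and -0.22, adjusted p = 0.162 and 0.293).

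SOD1, the copper and zinc enzyme of the cytosol, had 165, 178 and 192 FPKM in operated and 196, 215 and 260 FPKM in unoperated 6-month eyes (lowest, median and highest), with no overlap. It fell by 0.29 on the log2 scale (SE 0.06; limma, adjusted p = 0.00045) and differed by -0.12 with the macrophage covariate, where it did not pass. In juveniles SOD1 had 163, 165 and 155 FPKM in operated 5-week and 173, 170 and 188 FPKM in operated 6.5-week eyes, against 176, 187 and 197 FPKM in unoperated eyes, and the change of -0.15 missed the threshold (limma, adjusted p = 0.0626). SOD1 passed there in some other settings, among them equal-sum scaling (limma, adjusted p down to 0.000617). Catalase, CAT, the peroxide-splitting enzyme of peroxisomes, had 56.4, 69.5 and 79.4 FPKM in operated and 71.3, 82.8 and 90.0 FPKM in unoperated 6-month eyes. Its ranges overlapped, and it fell by 0.26 (SE 0.08; limma, adjusted p = 0.00879), which was lost with median-ratio scaling (adjusted p = 0.104) and with the macrophage covariate (adjusted p = 0.225). In juveniles CAT was 54.4, 65.7 and 59.4 FPKM at 5 weeks and 62.4, 63.2 and 68.9 FPKM at 6.5 weeks in operated eyes and 61.4, 73.8 and 80.7 FPKM in unoperated eyes, a difference that missed the threshold (limma, adjusted p = 0.061).

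SOD3, the dismutase secreted into the extracellular space, varied widely between libraries of a group. Operated 6-month eyes had 29.2, 45.2 and 147 FPKM (lowest, median and highest) and unoperated 6-month eyes 31.1, 163 and 203 FPKM. In juveniles the operated libraries had 125, 50.6 and 10.3 FPKM at 5 weeks and 112, 80.8 and 17.3 FPKM at 6.5 weeks, and unoperated libraries had 7.94, 10.47 and 84.2 FPKM. All groups overlapped. The surgery differences had opposite signs, at -1.13 ± 0.69 at 6 months (limma, adjusted p = 0.188) and 1.15 ± 0.69 in juveniles (limma, adjusted p = 0.203), and their difference missed the threshold too (-2.28 ± 0.98, limma, adjusted p = 0.32). Without the late-numbered 5-week libraries the juvenile rise of SOD3 passed (limma, adjusted p = 0.0222).

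Glutathione peroxidases went up or did not pass the test with surgery. GPX1, the cytosolic selenium enzyme, had 370, 393 and 473 FPKM (lowest, median and highest) in operated and 199, 236 and 273 FPKM in unoperated 6-month eyes. In juveniles GPX1 had 340, 284 and 401 FPKM in operated 5-week and 348, 295 and 351 FPKM in operated 6.5-week eyes, against 173, 184 and 253 FPKM in unoperated eyes. Every operated library exceeded every unoperated library of its age. The log2 fold changes were 0.78 ± 0.10 at 6 months (limma, adjusted p = 5.85e-07) and 0.80 ± 0.10 in juveniles (adjusted p = 5.45e-07). With the macrophage covariate they were 0.47 (limma, adjusted p = 0.043) and 0.40 (adjusted p = 0.246). GPX8, a peroxidase of the endoplasmic reticulum, rose at 6 months by 0.20 (limma, adjusted p = 0.00452) without overlap of the groups, and lost the call with equal-sum scaling (adjusted p = 0.359) and with the macrophage covariate (adjusted p = 0.527). GPX3, the peroxidase secreted into plasma, had no called surgery difference, with 217, 370 and 700 FPKM in operated and 175, 305 and 405 FPKM in unoperated 6-month eyes.

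The peroxiredoxins with the highest levels fell with surgery at both ages. PRDX1, a cytosolic peroxiredoxin that thioredoxin reduces, had 382, 458 and 517 FPKM (lowest, median and highest) in operated and 587, 651 and 724 FPKM in unoperated 6-month eyes, with no overlap. In juveniles it had 398, 413 and 426 FPKM in operated 5-week and 411, 470 and 552 FPKM in operated 6.5-week eyes, against 513, 579 and 614 FPKM in unoperated eyes, where 1 operated library reached into the unoperated range. PRDX1 fell by 0.51 at 6 months (SE 0.08; limma, adjusted p = 1.05e-05) and by 0.36 in juveniles (SE 0.08; adjusted p = 0.000664). PRDX6, a peroxiredoxin that uses glutathione and also has phospholipase activity, had 188, 253 and 302 FPKM in operated and 312, 380 and 486 FPKM in unoperated 6-month eyes. In juveniles PRDX6 had 185, 207 and 195 FPKM at 5 weeks and 176, 209 and 234 FPKM at 6.5 weeks in operated eyes, against 248, 298 and 309 FPKM in unoperated eyes. Its groups did not overlap at either age, and it fell by 0.66 (SE 0.11; limma, adjusted p = 3.22e-05) and 0.50 (SE 0.11; adjusted p = 0.000718).

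With the macrophage covariate PRDX1 differed by -0.43 at 6 months (limma, adjusted p = 0.0374) and by -0.26 in juveniles (adjusted p = 0.444). Under the same covariate PRDX6 differed by -0.46 at 6 months (limma, adjusted p = 0.109) and by -0.26 in juveniles (adjusted p = 0.629). PRDX4, the peroxiredoxin of the endoplasmic reticulum, rose at 6 months, with 56.8 ± 8.96 FPKM in operated and 44.1 ± 3.95 FPKM in unoperated eyes (SD), a log2 fold change of 0.35 ± 0.09 (limma, adjusted p = 0.00203; with the macrophage covariate 0.078). PRDX3, the mitochondrial peroxiredoxin, passed at neither age. SRXN1, sulfiredoxin, which repairs over-oxidised peroxiredoxins, had 7.14, 11.4 and 12.4 FPKM in operated and 5.77, 9.95 and 11.9 FPKM in unoperated 6-month eyes, and the ranges overlapped. In juveniles SRXN1 was 14.2, 11.01 and 12.1 FPKM at 5 weeks and 9.90, 10.8 and 8.15 FPKM at 6.5 weeks in operated eyes, against 7.64, 8.78 and 12.3 FPKM in unoperated eyes. It passed at neither age (limma, adjusted p = 0.397 and 0.194).

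TXNIP, which binds reduced thioredoxin and inhibits it, showed the largest fall among the 50 genes at both ages. In 6-month eyes it had 75.4, 90.8 and 111 FPKM (lowest, median and highest) in operated and 233, 264 and 293 FPKM in unoperated libraries. In juveniles the operated libraries had 86.8, 116 and 128 FPKM at 5 weeks and 107, 132 and 103 FPKM at 6.5 weeks, against 172, 204 and 275 FPKM in unoperated eyes. The groups did not overlap at either age. TXNIP fell by 1.55 on the log2 scale at 6 months (SE 0.11; limma, adjusted p = 5.01e-11), which is 2.93-fold lower, and by 0.92 in juveniles (SE 0.11; adjusted p = 3.54e-07), which is 1.89-fold lower. With the macrophage covariate the differences were -1.63 (limma, adjusted p = 2.8e-06) and -1.02 (adjusted p = 0.00739).

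TXNIP was also the only member past the threshold in the test of whether the surgery change differs between ages, with 0 members higher and 1 lower beside 0.734% of all genes higher and 0.355% lower. The difference was -0.63 ± 0.15 (limma, adjusted p = 0.04), and it lay close to the threshold: it was lost in 18 of the 26 fits that each left out 1 library, with adjusted p of 0.0506 to 0.0841. These libraries were operated 5-week 2 and 3, operated 6.5-week 1 and 2, unoperated 5-week 1, 2, 4, 6 and 7, operated 6-month 1, 4 and 6, and unoperated 6-month 1, 2, 4, 5, 6 and 7. At an unadjusted p under 0.05, 4 members were higher and 4 lower in this comparison, beside 4.60% and 8.29% of all genes. Calls at 1 age and not at the other, such as those of GCLM, PRDX4, SOD1, CAT and NQO1 at 6 months, are therefore not shown to differ between the ages.

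Thioredoxin itself is listed under its symbol TXN and again under the locus LOC100359245, which the deposited description also names thioredoxin. TXN had 47.0, 93.1 and 169 FPKM (lowest, median and highest) in operated and 48.9, 117 and 156 FPKM in unoperated 6-month eyes. In juveniles it had 54.0, 116 and 48.6 FPKM in operated 5-week and 159, 124 and 56.9 FPKM in operated 6.5-week eyes, against 28.6, 70.9 and 105 FPKM in unoperated eyes. The groups overlapped and TXN passed at neither age (-0.23 ± 0.36 and 0.50 ± 0.36, limma, adjusted p = 0.63 and 0.291). In operated 6-month eyes TXN was low where LOC100359245 was high: the libraries with 47.0, 62.8 and 72.1 FPKM of TXN had 274, 280 and 275 FPKM of the locus, and those with 114, 130 and 169 FPKM of TXN had 161, 204 and 223 FPKM.

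The sum of the pair varied less between libraries than either value alone. Over the 5 groups the coefficient of variation was 32.7% to 51.4% for TXN, 18.9% to 29.0% for LOC100359245 and 7.9% to 11.4% for their sum. The sum was 275, 338 and 392.43 FPKM (lowest, median and highest) in operated and 213, 229 and 269 FPKM in unoperated 6-month eyes. In juveniles the sum was 261, 270 and 310 FPKM in operated 5-week and 369, 296 and 320 FPKM in operated 6.5-week eyes, against 189, 208 and 236 FPKM in unoperated eyes. Every operated library lay above every unoperated library of its age. Summed as 1 gene, an alternative chosen after their values were seen, thioredoxin rose by 0.50 at 6 months (limma, adjusted p = 1.79e-05) and by 0.52 in juveniles (adjusted p = 1.14e-05). The sum was not fitted with other scalings, fewer libraries or covariates. LOC100359245 alone rose by 0.94 (limma, adjusted p = 0.000146) and 0.53 (adjusted p = 0.0214). Its 6-month call was lost with the macrophage covariate (adjusted p = 0.0946) and its juvenile call in 8 settings (adjusted p up to 0.71). The direction for TXN at 6 months thus depends on whether reads of the locus are counted with it, and neither entry alone is a certain measure of thioredoxin RNA.

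**Figure D3:**
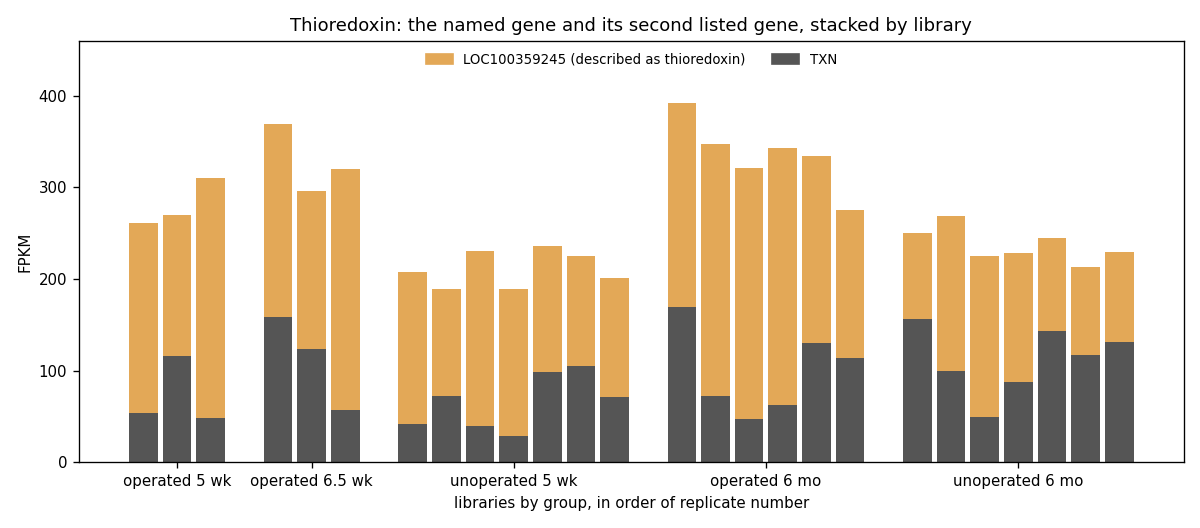
FPKM of TXN and of LOC100359245, which the deposited description also names thioredoxin, stacked for each library by group. The shares of the 2 entries differ between libraries of a group, while the stacked height is 275 to 392.43 FPKM in operated and 213 to 269 FPKM in unoperated 6-month eyes.

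Of the other thioredoxin family genes, TXNDC5 and TXNL4B rose at both ages. TXNDC5, a protein disulfide isomerase of the endoplasmic reticulum, averaged 72.7 ± 8.11 FPKM in operated and 50.9 ± 4.02 FPKM in unoperated 6-month eyes, and 70.7 ± 6.2 FPKM in operated and 55.6 ± 3.02 FPKM in unoperated juvenile eyes (SD), and the groups did not overlap. It rose by 0.51 ± 0.07 at 6 months (limma, adjusted p = 3.25e-06) and 0.34 ± 0.07 in juveniles (adjusted p = 0.000471), and with the macrophage covariate by 0.38 (adjusted p = 0.0403) with no juvenile call (0.18, adjusted p = 0.598). TXNL4B, a thioredoxin-like protein known from splicing, rose by 0.35 ± 0.12 (limma, adjusted p = 0.0195) and 0.65 ± 0.12 (adjusted p = 0.000123), but its most abundant transcript alone passed at neither age (adjusted p = 0.938 and 0.123), and the 6-month call was lost without operated library 5 (adjusted p = 0.0643). TXNL1, a thioredoxin-like protein bound to the proteasome, fell by 0.22 at 6 months (SE 0.06; limma, adjusted p = 0.00549) without overlap of the groups, and lost the call with median-ratio scaling (adjusted p = 0.0959) and with the macrophage covariate (adjusted p = 0.253).

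TXNDC16, a little-studied thioredoxin-domain protein, was the member with the lowest level and fell at 6 months by 1.02 (SE 0.36; limma, adjusted p = 0.0236). It had 1.09, 1.96 and 3.05 FPKM (lowest, median and highest) in operated and 2.33, 5.04 and 6.21 FPKM in unoperated eyes, which overlapped, and the call was lost without operated library 2 (adjusted p = 0.0577) or 3 (adjusted p = 0.0501). In juveniles TXNDC16 had 1.09, 2.55 and 2.38 FPKM at 5 weeks and 3.30, 1.82 and 2.65 FPKM at 6.5 weeks in operated eyes, against 0.28, 4.19 and 5.43 FPKM in unoperated eyes, and did not pass (limma, adjusted p = 0.643). TXNRD1, the cytosolic reductase of thioredoxin, had 25.4, 27.7 and 28.8 FPKM in operated and 27.6, 28.8 and 30.9 FPKM in unoperated 6-month eyes and did not pass (limma, adjusted p = 0.385). In juveniles TXNRD1 was 22.6, 27.7 and 27.6 FPKM at 5 weeks and 23.7, 24.9 and 20.0 FPKM at 6.5 weeks in operated eyes, against 25.6, 28.3 and 29.3 FPKM in unoperated eyes. There it fell by 0.18 (SE 0.06; limma, adjusted p = 0.0131), which was lost without operated 5-week library 1 (adjusted p = 0.0581) or operated 6.5-week library 3 (adjusted p = 0.0503). TXN2 and TXNRD2, the mitochondrial thioredoxin and its reductase, and TXNDC9, TXNDC11, TXNDC12, TXNDC15, TXNDC17 and TXNL4A passed in no comparison.

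Among the glutaredoxins, which reduce mixed disulfides with glutathione, GLRX of the cytosol rose at both ages and GLRX2 of mitochondria rose in juveniles. GLRX averaged 16.5 ± 9.53 FPKM in operated and 8.42 ± 4.01 FPKM in unoperated 6-month eyes, and 14.8 ± 4.13 FPKM in operated and 8.15 ± 1.69 FPKM in unoperated juvenile eyes (SD). The log2 fold changes were 0.92 ± 0.28 (limma, adjusted p = 0.00954) and 0.80 ± 0.28 (adjusted p = 0.0274). GLRX reached 35.6 FPKM in 1 operated 6-month library, and without it the change was 0.68 ± 0.25 (limma, adjusted p = 0.0311). Without the 8 libraries rich in lens RNA described below, the 6-month change was 0.53 ± 0.30 (adjusted p = 0.171). The juvenile call was lost without operated 5-week library 1 (adjusted p = 0.0636), operated 6.5-week library 1 (adjusted p = 0.0819) or unoperated library 3 (adjusted p = 0.0643). GLRX2 rose in juveniles by 0.31 ± 0.10 (limma, adjusted p = 0.0134) and lost the call in 6 settings, among them equal-sum scaling (adjusted p = 0.103), its most abundant transcript (0.265), operated 5-week eyes alone (0.287) and the macrophage covariate (0.774). With that covariate GLRX passed at neither age (adjusted p = 0.161 and 0.411). GLRX3 and GLRX5, which serve in iron-sulfur protein assembly, passed in no comparison.

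The subunits of glutamate-cysteine ligase, the first and rate-limiting enzyme of glutathione synthesis, differed in their calls. GCLM, the modifier subunit, had 17.0, 29.1 and 33.4 FPKM (lowest, median and highest) in operated and 9.90, 16.8 and 23.5 FPKM in unoperated 6-month eyes, with overlapping ranges. It rose by 0.71 ± 0.18 (limma, adjusted p = 0.00266). In juveniles GCLM had 32.6, 35.7 and 36.5 FPKM in operated 5-week and 39.4, 36.1 and 20.4 FPKM in operated 6.5-week eyes, against 20.6, 24.9 and 30.3 FPKM in unoperated eyes, a difference of 0.39 ± 0.18 that missed the threshold (limma, adjusted p = 0.0987). GCLM passed there in 3 other settings, among them the fit without operated 6.5-week library 3 (limma, adjusted p down to 0.023). GCLC, the catalytic subunit, had 5.75, 10.4 and 27.0 FPKM in operated and 8.64, 9.96 and 12.9 FPKM in unoperated 6-month eyes. In juveniles GCLC was 20.4, 10.9 and 11.8 FPKM at 5 weeks and 12.5, 17.5 and 3.40 FPKM at 6.5 weeks in operated eyes, against 8.95, 14.1 and 32.8 FPKM in unoperated eyes. Its groups overlapped and it passed at neither age (limma, adjusted p = 0.6 and 0.176). GSR, glutathione reductase, fell at 6 months by 0.24 (SE 0.07; limma, adjusted p = 0.00758), a call lost with median-ratio scaling (adjusted p = 0.105), and GSS, glutathione synthetase, passed in no comparison.

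Lens RNA differed between libraries. CRYAA, the lens alpha-A crystallin, exceeded 1000 FPKM in 8 of the 26 libraries, and GCLC reached 26.8 and 27.0 FPKM in the 2 operated 6-month libraries among them and at most 11.5 FPKM in the other 4. In unoperated 5-week eyes the 4 libraries among them had 13.7, 26.2, 29.1 and 32.8 FPKM of GCLC, and the other 3 had 8.95, 13.8 and 14.1 FPKM. Over all libraries, the slope of GCLC on the mean lens marker level was 0.20 ± 0.05 log2 units per log2 unit (limma, adjusted p = 0.072). No member passed in that fit, beside 0.324% of all genes called higher and 0.00% lower. At an unadjusted p under 0.05, 4 members were higher and 3 lower, beside 2.97% and 3.09% of all genes.

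Of 7 glutathione S-transferases listed by symbol 2 rose and 2 fell at 6 months, and 1 rose and 2 fell in juveniles. For counts this small, those are near the all-gene shares of 16.0% higher and 30.1% lower at 6 months and 16.5% and 20.8% in juveniles. MGST1, a membrane-bound transferase of microsomes and mitochondria, rose by 0.33 ± 0.12 at both ages (limma, adjusted p = 0.0242 at 6 months and 0.0295 in juveniles), but lost the 6-month call without unoperated library 3 or 6 (adjusted p = 0.0543 and 0.054) and the juvenile call without operated 5-week library 1, operated 6.5-week library 3 or unoperated library 2, 3 or 4 (adjusted p = 0.0565 to 0.124). GSTO1, which also reduces dehydroascorbate, rose at 6 months by 0.24 ± 0.06 (limma, adjusted p = 0.00297) with no overlap, and lost the call with equal-sum scaling (adjusted p = 0.194). GSTM3 fell by 0.30 and 0.33 (limma, adjusted p = 0.024 and 0.0165), and GSTZ1, an enzyme of tyrosine breakdown, fell by 0.27 and 0.28 (adjusted p = 0.0375 and 0.0356). GSTM3 lost the 6-month call without operated library 4 or 6 (adjusted p = 0.0828 at most) and the juvenile call without operated 6.5-week library 1 (adjusted p = 0.0625). GSTZ1 lost the 6-month call without operated library 2, 3 or 5 or unoperated library 4 or 7 (adjusted p up to 0.105), and the juvenile call without operated 5-week library 3, operated 6.5-week library 1 or unoperated library 1, 4 or 6 (up to 0.124). With the macrophage covariate MGST1, GSTM3 and GSTZ1 lost their calls at both ages, and GSTO1 lost its 6-month call. GSTP1 was the transferase with the highest level among the 7, at 730 ± 150 FPKM in operated and 696 ± 57.2 FPKM in unoperated 6-month eyes (SD), with no call for surgery, and GSTM2 and MGST3 had none either. Of the methionine sulfoxide reductases, MSRB1, itself a selenoprotein, fell at 6 months by 0.28 (SE 0.08; limma, adjusted p = 0.00849). This was lost with median-ratio scaling (adjusted p = 0.0994) and with the macrophage covariate (adjusted p = 0.134). MSRA and MSRB3 passed at neither age.

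With age, antioxidant genes of unoperated eyes were more often higher than lower. At 6 months against 5 weeks 14 members rose and 2 fell in unoperated eyes, which is 28.0% and 4.0% of the members, beside 11.4% of all genes higher and 9.46% lower. The median log2 fold change was 0.12 for the members and 0.04 for all genes. In operated eyes, 6 months against juveniles, 6 members rose and 0 fell at the limma threshold, beside 5.88% and 9.78% of all genes, and at an unadjusted p under 0.05 the counts were 13 and 1, beside 12.8% and 16.5% of all genes. Without the 8 libraries over 1000 FPKM of CRYAA, 4 of which are among the 7 unoperated 5-week libraries, the count in unoperated eyes was 3 in place of 16. Calls over all 12948 genes dropped as well in this smaller fit, to 279 higher and 320 lower in place of 1471 and 1225. The changes of several genes that missed the threshold in that smaller fit were about as large, with MGST3 at 0.29, MSRA at 0.28, TXNL1 at 0.27 and GPX7 at -0.44 (limma, adjusted p = 0.105, 0.101, 0.0855 and 0.0982). That of SOD3 was smaller, at 1.64 in place of 2.36 (limma, adjusted p = 0.272), and GSR missed the threshold there too (adjusted p = 0.0905). With operated eyes fitted without the unoperated libraries the count was 1 in place of 6, and with median-ratio scaling there were 13 rises. All genes had 209 rises and 613 falls in the former, in place of 761 and 1266, and 1150 and 1070 with median-ratio scaling. With equal-sum scaling 8 members rose and 3 fell in unoperated eyes, and 3 rose and 1 fell in operated eyes. Of all genes 875 rose and 1652 fell under it in unoperated eyes, and 329 rose and 1996 fell in operated eyes. Cell markers also differed with age in unoperated eyes: 5 of 14 macrophage and 3 of 6 smooth muscle markers rose, and 2 of 3 erythroid, 3 of 8 pigment cell and 2 of 13 epithelium markers fell, with 1 epithelium marker rising. With the macrophage covariate MGST3, MSRA, TXNL1, GPX7, PRDX6, GSR and SOD1 kept their age calls in unoperated eyes (limma, adjusted p = 0.00388 to 0.0491). Under it CAT, GCLM, GPX1, GPX3, MSRB1, NQO1 and TXNIP lost theirs. The part of the other markers was not tested.

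All 4 dismutase and catalase genes rose with age in unoperated eyes, beside 11.4% of all genes. SOD2 rose by 0.29 ± 0.05 in operated (limma, adjusted p = 0.000552) and 0.26 ± 0.05 in unoperated eyes (adjusted p = 0.00063), and in operated eyes every 6-month library exceeded every juvenile one. SOD3 had the largest rise, 2.36 ± 0.66 in unoperated eyes (limma, adjusted p = 0.0145), with 31.1 to 203 FPKM in 6-month eyes overlapping 7.94 to 84.2 FPKM in 5-week eyes, and was 0.08 ± 0.72 in operated eyes (adjusted p = 0.96). Without the libraries over 1000 FPKM of CRYAA the SOD3 change was 1.64 ± 0.81 (limma, adjusted p = 0.272). SOD1 rose by 0.22 (limma, adjusted p = 0.00945) and CAT by 0.21 (adjusted p = 0.0457) in unoperated eyes. The CAT call was lost in 14 of the 26 fits that left out 1 library, with adjusted p up to 0.106: operated 5-week library 3, operated 6.5-week 1 and 2, unoperated 5-week 2, 4, 6 and 7, operated 6-month 1, and unoperated 6-month 1, 2, 3, 5, 6 and 7. SOD1 had no such loss, but missed the threshold with equal-sum scaling (adjusted p = 0.0504), with the lens covariate (0.0598) and without the CRYAA libraries (0.155).

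GPX3 was the only member called with a change of at least 1 log2 unit with age in operated eyes, with 217, 370 and 700 FPKM (lowest, median and highest) at 6 months and 239, 140 and 218 FPKM at 5 weeks and 73.3, 140 and 257 FPKM at 6.5 weeks. It rose by 1.15 ± 0.31 there (limma, adjusted p = 0.0133) and by 0.87 ± 0.28 in unoperated eyes (adjusted p = 0.0312), where 175, 305 and 405 FPKM at 6 months compare with 117, 140 and 266 FPKM at 5 weeks. The ranges overlapped in both, and the calls were lost with only the groups compared in the fit for operated eyes (adjusted p = 0.0824) and, for unoperated eyes, in 8 of 26 fits without 1 library (5-week 1, 3, 4, 5 and 7 and 6-month 2, 4 and 7, adjusted p up to 0.0677). HMOX1 rose with age in operated eyes by 0.89 ± 0.22 (limma, adjusted p = 0.00843) and not in unoperated eyes (0.11 ± 0.21, adjusted p = 0.742), and the difference between the treatments is the same test as given above, which was not passed. The HMOX1 call was lost with only the groups compared in the fit (adjusted p = 0.0847).

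PRDX6, GSR, TXNL1, MSRA and MGST3 rose with age in unoperated eyes by 0.43, 0.33, 0.27, 0.28 and 0.29 on the log2 scale, each called at adjusted p between 0.00138 and 0.00544 by limma. Without the CRYAA libraries PRDX6 kept its call, and GSR, TXNL1, MSRA and MGST3 lost theirs (limma, adjusted p = 0.0855 to 0.105). TXNIP, NQO1, GPX1 and MSRB1 also rose, by 0.35, 0.42, 0.30 and 0.23, nearer to the threshold (limma, adjusted p = 0.0182, 0.0271, 0.024 and 0.0451). Without 1 library the NQO1 call was lost for unoperated 5-week or 6-month library 2 (adjusted p up to 0.066), the GPX1 call for 6-month library 1, 4 or 7 (up to 0.0564) and the MSRB1 call for 12 libraries (unoperated 5-week 1, 2, 3, 4, 5 and 7, operated 6-month 1 and unoperated 6-month 1, 2, 5, 6 and 7, up to 0.1). GCLM fell by 0.63 ± 0.17 (limma, adjusted p = 0.0129), with 16.6 ± 4.89 FPKM in 6-month and 25.1 ± 3.49 FPKM in 5-week unoperated eyes (SD), and GPX7, a peroxidase of the endoplasmic reticulum, fell by 0.42 ± 0.12 without overlap (adjusted p = 0.0114). The GCLM call was lost without the CRYAA libraries and with the lens or the macrophage covariate (limma, adjusted p up to 0.213). GCLC differed by -0.78 ± 0.36 (limma, adjusted p = 0.126). In operated eyes the other rises were those of GSTP1, GSTO1 and TXNRD1, by 0.34, 0.22 and 0.18 (limma, adjusted p = 0.0259, 0.0197 and 0.0393), and GCLM differed by -0.30 ± 0.19 (adjusted p = 0.304). Without 1 library the GSTP1 call was lost for operated 5-week 3, operated 6.5-week 2 and operated 6-month 4 and 6 (adjusted p up to 0.072), the GSTO1 call for operated 5-week 1, operated 6.5-week 2 and operated 6-month 2 (up to 0.0638), and the TXNRD1 call for operated 5-week 1, operated 6.5-week 3 and operated 6-month 1, 2, 3, 5 and 6 (up to 0.125).

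**Figure D4:**
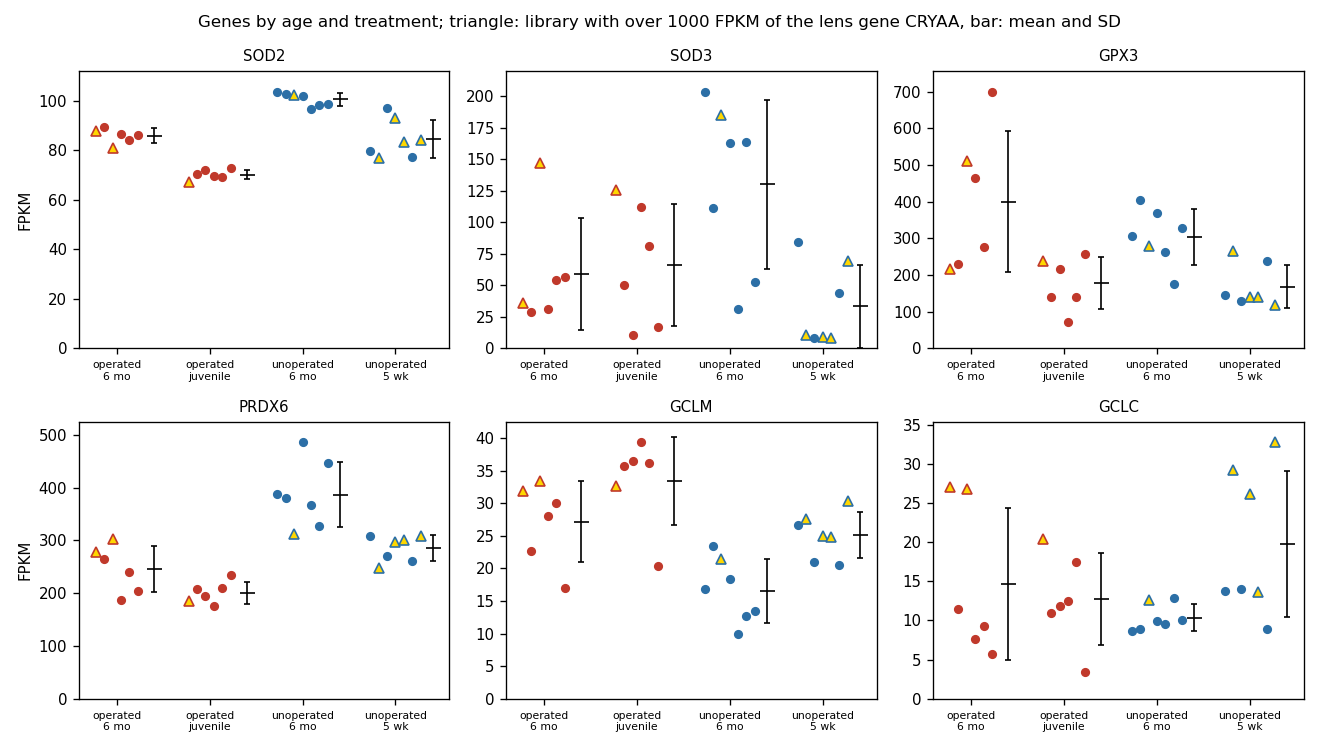
FPKM of 6 antioxidant genes in every library by treatment and age, with the mean and SD as bars and with triangles for the 8 libraries over 1000 FPKM of the lens gene CRYAA. SOD2 is higher in 6-month than in juvenile operated eyes without overlap, and GCLC is at 26.8 and 27.0 FPKM in the operated 6-month libraries with lens RNA.

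Operated 6.5-week and operated 5-week eyes differed in 0 members by limma, beside 0.00772% of all genes higher and 0.00772% lower. At an unadjusted p under 0.05, 6 members were higher and 1 lower, beside 4.94% of all genes higher and 5.40% lower. MSRA, which repairs methionine-S-sulfoxide, had the smallest p, at 0.41 ± 0.11 (limma, adjusted p = 0.172), and without operated 6.5-week library 2 it reached 0.50 ± 0.11 (adjusted p = 0.0432).

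Metallothioneins, small cysteine-rich proteins that bind zinc and copper and scavenge radicals, and further transferases stand in the table under locus numbers with a description. They are not members by symbol, and 19 such entries were added by their deposited description after it was read. Of 5 metallothionein entries 3 rose with surgery at both ages, beside 16.0% of all genes at 6 months and 16.5% in juveniles. Metallothionein-2A (LOC100343299) had 443, 618 and 889 FPKM (lowest, median and highest) in operated and 129, 158 and 173 FPKM in unoperated 6-month eyes. In juveniles it had 609, 684 and 541 FPKM in operated 5-week and 430, 378 and 551 FPKM in operated 6.5-week eyes, against 164, 185 and 221 FPKM in unoperated eyes. The groups did not overlap, and it rose by 2.07 ± 0.13 at 6 months (limma, adjusted p = 9.72e-12) and 1.46 ± 0.13 in juveniles (adjusted p = 5.32e-09).

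Metallothionein-2D (LOC100343557) averaged 931 ± 246 FPKM in operated and 306 ± 22.8 FPKM in unoperated 6-month eyes, and 750 ± 178 FPKM in operated and 282 ± 33.6 FPKM in unoperated juvenile eyes (SD), and metallothionein-1A (LOC100343802) 748 ± 263 and 286 ± 37.6 FPKM, and 774 ± 123 and 302 ± 48.3 FPKM, in the same order. They rose by 1.56 and 1.31 at 6 months (limma, adjusted p = 2.28e-09 and 1.64e-06) and by 1.38 and 1.36 in juveniles (adjusted p = 2.32e-08 and 1.31e-06), with no overlap. Metallothionein sequences are alike, so that reads may be shared between these entries. Among these values, only the juvenile call of metallothionein-1A was lost with the macrophage covariate (limma, adjusted p = 0.125). MT3, known from brain, and a hippocampal-like entry near 1 FPKM did not pass for surgery.

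Of 12 transferase entries under locus numbers 1 rose and 4 fell at each age, beside 16.0% of all genes higher and 30.1% lower at 6 months and 16.5% and 20.8% in juveniles, so that the falls at 6 months are near the background. Glutathione S-transferase Yc (LOC100341104), an alpha-class name, had 11.7, 25.0 and 32.7 FPKM (lowest, median and highest) in operated 6-month eyes and 0, 2.09 and 3.06 FPKM in unoperated ones, 1 of which is listed at 0. In juveniles it had 26.8, 33.2 and 39.7 FPKM in operated 5-week and 27.3, 41.4 and 35.0 FPKM in operated 6.5-week eyes, against 0.62, 1.62 and 2.55 FPKM in unoperated eyes. The groups did not overlap and the differences were 3.69 ± 0.37 (limma, adjusted p = 3.02e-08) and 4.01 ± 0.37 (adjusted p = 1.04e-08). A transcript is listed only where 1 group or more has it above 1 FPKM in each library, and this one is listed through its operated groups alone. The filter thus favoured a difference for this entry, and its test is not independent of that filter.

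The alpha-class transferase LOC100328910 (alpha I) went the other way, at 594 ± 85.1 FPKM in operated and 1006 ± 116 FPKM in unoperated 6-month eyes, and 443 ± 91.6 FPKM in operated and 770 ± 90.0 FPKM in unoperated juvenile eyes (SD). It fell by 0.77 at 6 months and 0.81 in juveniles (limma, adjusted p = 8.62e-07 and 4.36e-07), without overlap. Glutathione S-transferase A4 (LOC100341622), known for clearing lipid peroxidation products, fell by 0.84 and 0.72 (limma, adjusted p = 4.56e-07 and 4.93e-06), and the theta-1-like entry LOC100340711 by 1.38 and 1.27 (adjusted p = 1.2e-05 and 4.27e-05). With the macrophage covariate the theta-1-like calls were lost at both ages (limma, adjusted p up to 0.437) and the A4 call in juveniles (adjusted p = 0.252). The fourth entry that fell, a kappa 1 copy (LOC100350399), fell by 0.36 and 0.47 and lost its calls in several fits, while its other copy and the mu-class entries did not pass for surgery.

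Markers of the tissue's own cells fell as these transferases and peroxiredoxins did. Of 13 measured iris and ciliary epithelium markers 9 fell and 1 rose at 6 months and 10 fell and 1 rose in juveniles, and their summed level was 1663 to 2950 FPKM in operated and 3395 to 4258 FPKM in unoperated 6-month eyes, and 1476 to 2492 FPKM in operated and 3430 to 5471 FPKM in unoperated juvenile eyes. All 8 pigment cell markers fell at 6 months and 7 in juveniles, and of 6 smooth muscle markers 4 fell at 6 months and 3 fell and 1 rose in juveniles, beside 30.1% of all genes lower at 6 months and 20.8% in juveniles. The part of these cell markers in the falls was not tested.

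**Figure D5:**
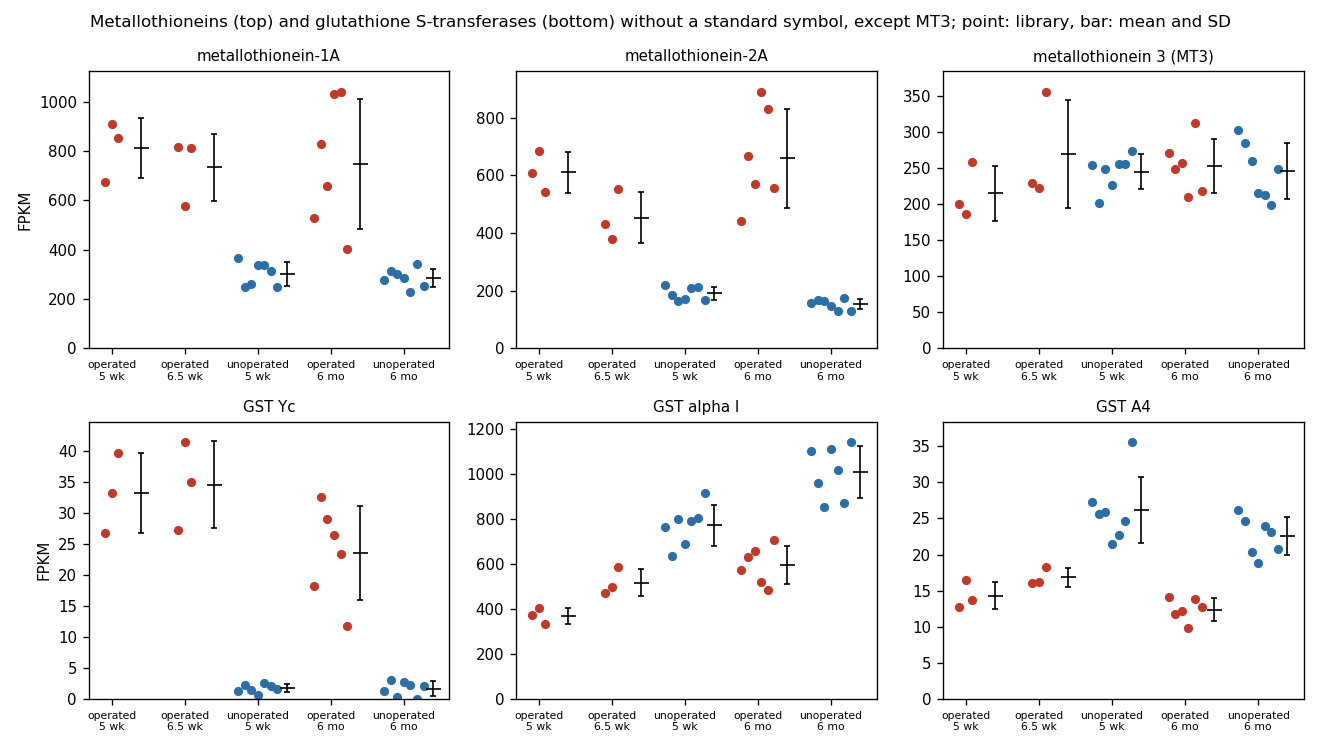
FPKM of metallothionein and glutathione S-transferase entries listed under locus numbers in every library by group, with the mean and SD as bars. Metallothionein-2A is at 443 to 889 FPKM in operated and 129 to 173 FPKM in unoperated 6-month eyes, and transferase alpha I is lower in operated eyes at both ages.

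Around the members, 8 lists of other redox genes were chosen with earlier results of these data known and are given by their counts. These counts stand beside the same 16.0% of all genes higher and 30.1% lower at 6 months, and 16.5% and 20.8% in juveniles. Of 7 measured genes of NRF2 control 2 rose and 0 fell at each age. MAFF, a small MAF partner of NRF2, rose by 1.76 at 6 months (limma, adjusted p = 5.29e-09) and 1.64 in juveniles (adjusted p = 2.29e-08), with 10.7 ± 1.95 FPKM in operated and 2.78 ± 0.46 FPKM in unoperated 6-month eyes (SD). NFE2L2, which encodes NRF2, rose by 0.35 (limma, adjusted p = 4.16e-05) and 0.19 (adjusted p = 0.0143). The juvenile NFE2L2 call was lost in 5 settings: equal-sum scaling (0.06, adjusted p = 0.447), operated 6.5-week eyes alone (0.0687), without the late-numbered 5-week libraries (0.0697), without the CRYAA libraries (0.0843) and with the macrophage covariate (0.405). Of the 6 NRF2 targets named above, HMOX1 and GCLM rose at 6 months, NQO1 fell with a call lost in 4 settings, and GCLC, SRXN1 and TXNRD1 did not pass.

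Of 12 heme and iron genes 7 rose and 1 fell at 6 months and 6 rose and 0 fell in juveniles, with list medians of 0.47 and 0.27 beside all-gene medians of -0.10 and -0.06. CP, ceruloplasmin, a ferroxidase, rose by 2.84 and 2.76 (limma, adjusted p = 2.06e-12 and 3.79e-12), at 180 ± 35.5 FPKM in operated and 24.9 ± 6.18 FPKM in unoperated 6-month eyes (SD). The ferritin chains that store iron rose at both ages, FTH1 by 0.86 and 0.90 (limma, adjusted p = 2.45e-08 and 1.58e-08) and FTL by 0.79 and 0.60 (adjusted p = 3.77e-05 and 0.000843). BLVRA, which turns the biliverdin made by heme oxygenase into bilirubin, rose by 0.71 and 0.75 (limma, adjusted p = 5.91e-05 and 3.83e-05). HP rose in juveniles by 1.51 (limma, adjusted p = 4.63e-08) and kept that call in every setting. The BLVRA calls were lost with the macrophage covariate (limma, adjusted p = 0.187 and 0.455), as was that of FTL at 6 months (0.251). The juvenile call of FTL was not followed through the other settings. With age in unoperated eyes 3 of the 12 rose and TFRC, the transferrin receptor, fell by 0.70 (limma, adjusted p = 4.06e-05), beside 11.4% of all genes higher and 9.46% lower. The rises were those of HP, FTH1 and SLC48A1 and were lost without the CRYAA libraries, while the TFRC call was kept.

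Of 18 genes of cysteine supply and glutathione turnover 4 rose and 6 fell at 6 months and 4 rose and 5 fell in juveniles, which at 6 months is close to the shares of all genes. GGT5, which cleaves glutathione and leukotriene C4 outside cells, rose by 1.75 and 1.53 (limma, adjusted p = 2.73e-12 and 3.36e-11), with 16.4 ± 1.97 FPKM in operated and 4.52 ± 0.54 FPKM in unoperated 6-month eyes (SD). CHAC2, which degrades glutathione inside cells, fell by 1.21 and 0.55 (limma, adjusted p = 1.73e-07 and 0.00268), and CBS, the first enzyme from homocysteine to cysteine, by 1.05 and 0.91 (adjusted p = 1.34e-06 and 1.16e-05). SLC7A11, the cystine carrier and also a known NRF2 target, fell by 1.14 at 6 months (SE 0.40; limma, adjusted p = 0.023) and rose with age in unoperated eyes by 1.65 (adjusted p = 0.00367), and was chosen after its values were seen. Its age call was lost without the CRYAA libraries (limma, adjusted p = 0.286). Of 10 genes of NADPH supply 1 rose and 2 fell at 6 months and 1 rose and 4 fell in juveniles, among them MTHFD2, which rose by 0.64 and 0.59 (limma, adjusted p = 3.24e-05 and 0.000119), and transketolase, TKT, which fell by 0.50 and 0.78 (adjusted p = 0.00311 and 4.25e-05). Calls lost at both ages with the macrophage covariate were those of CBS (limma, adjusted p = 0.127 and 0.82), MTHFD2 (0.172 and 0.615) and TKT (0.215 and 0.145).

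The 11 measured genes of selenoprotein supply and of selenoproteins other than the members had 4 falls at 6 months and 3 in juveniles and 0 rises with surgery. The falls are near the all-gene shares of 30.1% and 20.8%. Selenoproteins among the members, such as GPX1, which rose at both ages, and MSRB1, which fell at 6 months, are not counted here. With age in unoperated eyes 7 of the 11 rose, beside 11.4% of all genes. SELENOP, the selenium carrier, fell by 0.77 and 0.48 with surgery (limma, adjusted p = 1.63e-06 and 0.000593), with 516 ± 82.2 FPKM in operated and 874 ± 65.6 FPKM in unoperated 6-month eyes (SD), and rose with age by 0.46 (adjusted p = 0.00184). Its age call was lost without the CRYAA libraries (limma, adjusted p = 0.0729). Of 8 genes of metal handling beside the metallothioneins 4 fell at 6 months and 3 in juveniles with 0 rises, among them the zinc exporter SLC30A1 by 0.77 and 0.62 (limma, adjusted p = 6.02e-06 and 0.000112) and the copper pump ATP7A by 0.95 and 0.62 (adjusted p = 9.65e-06 and 0.00153). Both lost the juvenile call with the macrophage covariate (limma, adjusted p = 0.205 for SLC30A1 and 0.554 for ATP7A).

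Of 11 sources of superoxide and peroxide 4 rose and 3 fell at 6 months and 5 rose and 2 fell in juveniles. Members that rose at both ages included XDH, xanthine dehydrogenase, by 1.07 and 1.66 (limma, adjusted p = 0.000131 and 4.88e-07), and NOS3, the endothelial nitric oxide synthase, by 0.80 and 0.63 (adjusted p = 8.54e-05 and 0.00118), while NOX4, a peroxide-forming oxidase, fell by 0.98 and 0.59 (adjusted p = 0.00038 and 0.025). XDH was at 1.61 to 2.70 FPKM in operated and 0.23 to 1.56 FPKM in unoperated 6-month eyes, and at 1.80 to 3.07 FPKM in operated and 0.17 to 0.67 FPKM in unoperated juvenile eyes. It is therefore listed through its operated groups alone, so that the filter favoured a difference and its test is not independent of that filter. Of 10 other redox defence genes 1 rose and 6 fell at 6 months and 1 rose and 5 fell in juveniles: UCP2, a mitochondrial carrier, rose by 1.29 and 1.18 (limma, adjusted p = 4.77e-06 and 1.86e-05), and FAM213A, a peroxiredoxin-like gene, fell by 0.90 and 0.97 (adjusted p = 6.76e-08 and 2.33e-08). UCP2, fitted with the macrophage covariate, differed by 0.24 at 6 months and -0.16 in juveniles (limma, adjusted p = 0.442 and 0.789). Under it the calls of XDH (adjusted p = 0.184 and 0.0886) and NOS3 (0.16 and 0.684) were lost at both ages, that of NOX4 at 6 months (0.489) and that of FAM213A in juveniles (0.0759).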

How the data were processed

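The authors deposited FPKM per RefSeq transcript and library, per the file headers. Tools named in the submitters' processing notes are Bowtie2 2.2.5, HISAT, HISAT2 2.0.4 and RSEM 1.2.12, with no roles, and no build is given in the sources used here. The deposited table lists 16725 transcripts, every one above 1 FPKM throughout 1 or more of 4 groups (smallest such minimum 1.01 FPKM). No read counts were used, so depth is unknown. FPKM were summed per gene symbol, 68 transcripts giving the 50 members. RefSeq names (mOryCun1.1) served 1 alternative and would add GSTM4.

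Using limma 3.58.1 in R 4.3.3, log2(FPKM + 0.5) was fitted for all 12948 symbols with 1 mean per group over 26 libraries, trended and robust variances and Benjamini-Hochberg adjustment, for 6 comparisons. The design foresaw a count model and set limma as its form for FPKM. The fit was tested on simulated data. Values per library are given for members called with a log2 change of at least 1 and for dismutases, catalase, HMOX1, NQO1, GCLC, GCLM, TXN, TXNRD1 and SRXN1. GPX1, PRDX1 and PRDX6 were added after their values were seen, as were the locus-number entries. From each list up to 4 genes with the smallest p are named. Members and lists were chosen with earlier results of these data known. Alternatives changed the pseudocount, filter, scaling, transcript, naming, moderation, libraries and covariates.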

Additional observations from a re-analysis of the deposited data

Results flagged for a closer look

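Among 153 sets of a gene and a group of 4 to 10 libraries, 8 had 1 library far from the others by Dixon's criterion, which chance alone gives in about 1 in 20 such sets. In operated 6-month eyes GLRX had 35.6 FPKM in library 1, where the next library had 14.1 FPKM, and SOD3 had 147 FPKM in library 3, where the next had 56.6 FPKM. In unoperated 6-month eyes MSRB1 had 79.6 FPKM in library 1 and 71.1 FPKM in the next. In unoperated 5-week eyes library 6 stood out for GPX1 at 252.72 FPKM (next 202 FPKM), for MSRB1 at 73.8 FPKM (next 61.4 FPKM) and for TXNDC11 at 16.8 FPKM (next 15.0 FPKM). NQO1 had 37.6 FPKM in unoperated 5-week library 7 (next 27.9 FPKM), and MGST3 had 75.0 FPKM in library 2, below the next at 88.2 FPKM.

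The surgery change of TXNIP differed between ages in the interaction test, with -0.63 on the log2 scale for 6 months minus juveniles (limma, adjusted p = 0.04). The fall was 1.55 at 6 months and 0.92 in juveniles.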

How the results depend on the processing

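No paired analysis was possible because the replicate numbers only name libraries and tie no library to one of another group. Of 63 called member values, 19 kept their call under every alternative other than the macrophage covariate, over up to 42 settings. With that covariate 8 members were called for surgery at 6 months (25 without it) and 2 in juveniles (15 without it). Without the libraries over 1000 FPKM of CRYAA the counts were 9 for surgery in juveniles and 3 for age in unoperated eyes (16 with them), and with the lens marker covariate 7 for age in unoperated eyes. All genes without those libraries had 1283 rises and 1361 falls for surgery in juveniles, in place of 2141 and 2694. For age in unoperated eyes all genes had 279 and 320 without those libraries, in place of 1471 and 1225, and 744 and 797 with the lens covariate. For age in operated eyes, 6 calls became 13 with median-ratio scaling and 1 with only the groups compared. The 1 interaction call became 0 with the filter at a mean of 5 FPKM, median-ratio scaling, operated 5-week or 6.5-week eyes alone, without the late-numbered 5-week libraries, without the CRYAA libraries and with the lens covariate. Leaving out 1 library at a time gave 23 to 26 and 12 to 18 calls for surgery at 6 months and in juveniles, 12 to 17 and 4 to 8 for age in unoperated and operated eyes, 0 to 1 for the interaction and 0 to 1 for 6.5 against 5 weeks. Rises and falls of members with upper-quartile scaling were 13 and 12 at 6 months and 10 and 6 in juveniles, beside 2419 and 3237, and 2251 and 2543, of all genes. For age in unoperated eyes they were 12 and 2 with median-ratio, 11 and 2 with upper-quartile and 8 and 3 with equal-sum scaling. All genes had 1201 and 1396, 1018 and 1597, and 875 and 1652 in the same order. Values that changed sign were TXN at 6 months 0.50 with its copy added; with the macrophage covariate SOD3 0.69 and GPX3 -0.10 at 6 months, and GCLC 0.88, SRXN1 -0.086, SOD1 0.066, UCP2 -0.16 and NCF1 -0.24 in juveniles; and the GCLC interaction -0.018 without the CRYAA libraries. Causes were not tested. FPKM give no depth, so counting error is unknown, and members low in every group cannot be seen.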
